A study of Mus musculus with 16 samples.

Results

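Toll-like receptors are sensors of microbial and self molecules, and 10 genes of their pathway were followed here in the lungs of newborn mice after ozone. The 10 genes were the receptors Tlr2, Tlr3, Tlr4 and Tlr7, the ligand-handling proteins Cd14, Lbp and Ly96, the adaptor Myd88, and the inhibitors Nfkbia and Tnfaip3. They were taken as every array probe named for 1 of these genes, which gave 12 probes of the 41174 probes that are not controls. All 10 were among the 21631 genes tested.

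The study exposed 3-day-old BALB/c pups, an inbred strain, for 3 h to ozone at 1000 ppb or to filtered air and profiled whole lungs on 16 arrays, 1 per mouse. The 4 groups were ozone 6 h, air 6 h, ozone 24 h and air 24 h, named by the time between the end of the exposure and collection, with 4 mice in each. The groups shared strain and age at exposure, and no genotype beyond the strain is given for them. Each time point was a separate run with air littermates of its own, the pups were cross-fostered during the exposure, and the lungs profiled were drawn at random from a larger number of animals.

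In the textbook pathway, Lbp carries bacterial lipopolysaccharide to Cd14, a surface protein of macrophages, monocytes and neutrophils that also occurs in soluble form, and Cd14 hands it to Ly96 (also called MD-2), which is bound to Tlr4. Tlr2 senses bacterial lipoproteins at the cell surface, while Tlr3 and Tlr7 sense double-stranded and single-stranded RNA in endosomes. All of these receptors but Tlr3 signal through Myd88 to NF-kB, a transcription factor held in the cytoplasm by IkBα, the product of Nfkbia, and restrained further by the ubiquitin-editing enzyme A20, the product of Tnfaip3. In the lung the pathway is best known for the response of macrophages and airway epithelium to inhaled bacteria and particles, and fragments of matrix such as versican and hyaluronan are also known to act on it.

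The arrays read each gene with 60-base oligonucleotides. The probes of Lbp, Ly96 and Nfkbia are shown because their letters lie on both sides of an intron in the genome, so that they read spliced messenger RNA. They lie at chr2:158154142-158157684 (plus strand), chr1:16696289-16699561 (plus strand) and chr12:56590945-56591440 (minus strand) of mouse build mm9, spans of 3543, 3273 and 496 bases. No letter is set in capitals, since no base of them was singled out.
Lbp: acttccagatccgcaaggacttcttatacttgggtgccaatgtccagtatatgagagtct
Ly96: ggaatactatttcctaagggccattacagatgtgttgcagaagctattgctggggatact
Nfkbia: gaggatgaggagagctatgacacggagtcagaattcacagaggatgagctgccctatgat

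Array brightness, as the 75th percentile of processed signal, ran from 573.69 to 946.16. The share of spots well above background ran from 65.0% to 83.9%, with ozone replicate 3 of 6 h at the top. The 10 genes were each read by a probe well above background on all 16 arrays, as were all 6 markers of alveolar type II cells, the surfactant-producing cells of the lung. Levels are given as log2 signal relative to the 75th percentile of the array, so that 0 is that percentile, and levels of different probes are not set against each other. Xist, which marks females, was low on 2 of 4 ozone arrays and 1 of 4 air arrays at 6 h, and on 3 of 4 ozone arrays and 1 of 4 air arrays at 24 h.

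Of the 10 genes, 2 rose at 6 h, Cd14 and Lbp, and none fell. A gene was called changed where its Benjamini-Hochberg adjusted p from limma over all genes was under 0.05. By that rule 4.47% of all genes were called at 6 h, 1.36% as higher and 3.11% as lower. The median log2 fold change of the 10 genes was 0.045 at 6 h, beside 0.0719 over all genes. The latter median moved with the filter and with 1 array. It was 0.0374 over genes well above background on all 16 arrays, as the 10 genes were, and -0.00422 without ozone replicate 3 of 6 h. At 24 h limma called 0 of the 10 (2.01% of all genes), and 1 of them, Cd14, had an unadjusted p under 0.05, as had 13.3% of all genes. The median of the 10 at 24 h was 0.104, beside 0.0239 over all genes. The difference between the ozone effects at 24 h and at 6 h was called for 0 of the 10 (0.0647% of all genes), and 2 of them, Lbp and Tlr7, had an unadjusted p under 0.05, beside 12.5% of all genes.

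**Figure D1:**
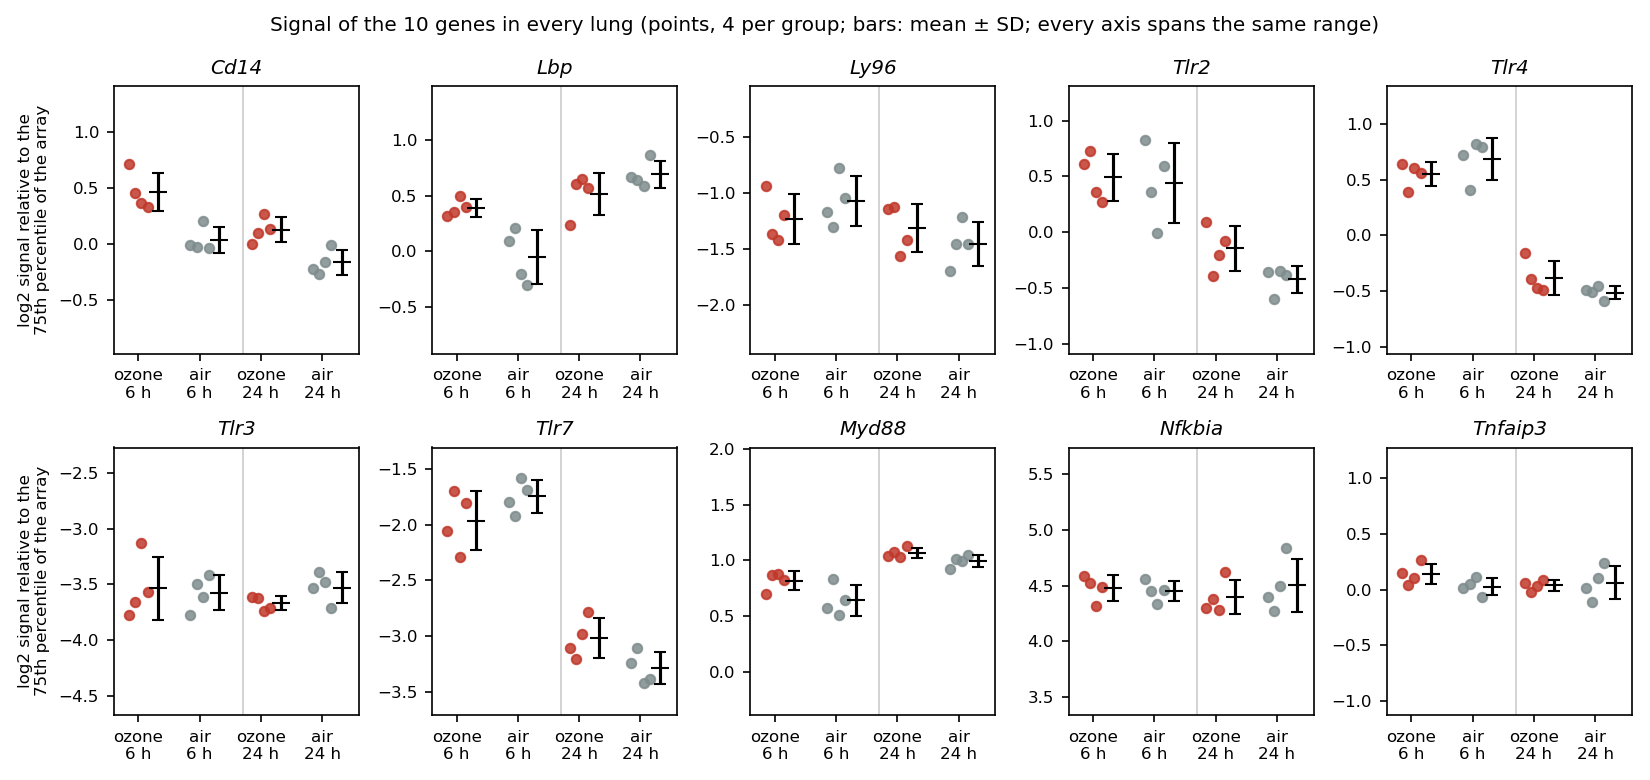
Level of each of the 10 genes (y axis, log2 signal relative to the 75th percentile of the array) in the 16 lungs, with ozone in red and air in grey at 6 h and 24 h, and black bars for the mean ± SD of 4 lungs. Cd14 at both times and Lbp at 6 h have ozone lungs that all lie above the air lungs, as have 4.62% of all genes at 6 h and 6.81% at 24 h. Tlr4, Tlr7 and Myd88 have levels at 24 h that lie apart from those at 6 h.

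Cd14, the co-receptor that passes lipopolysaccharide on, was higher in every ozone lung than in any air lung at both times. At 6 h its levels were 0.71, 0.46, 0.37 and 0.33 in the ozone lungs, against -0.01, -0.03, 0.21 and -0.04 in the air lungs. The mean was 0.47 ± 0.17 with ozone and 0.03 ± 0.12 with air (SD, n = 4 each), a rise of 0.44 ± 0.09 on the log2 scale (SE, adjusted p = 0.0178). That is 1.35-fold, with a 95% interval of 1.18-fold to 1.55-fold. Of all genes, 4.62% had 4 ozone values at 6 h that all lay above the 4 air values. The probe lies at chr18:36884969-36885028 (mm9, minus strand).

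At 24 h the levels of Cd14 were 0.00, 0.10, 0.27 and 0.14 in the ozone lungs, against -0.22, -0.27, -0.16 and -0.01 in the air lungs. The groups lay side by side, the lowest ozone lung just above the highest air lung, and 6.81% of all genes had ozone values wholly above the air values at that time. The log2 fold change was 0.29 ± 0.09 (SE, adjusted p = 0.141), which did not pass the test over all genes. The effect at 24 h minus that at 6 h was -0.14 ± 0.13, with a 95% interval of -0.424 to 0.138 (adjusted p = 0.693).

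The size of the rise of Cd14 at 6 h differed between the slides. Among replicates 1 and 2, which shared a slide, it was 0.60 ± 0.12 (adjusted p = 0.0591), and among replicates 3 and 4 on the other slide 0.27 ± 0.12 (adjusted p = 0.189). With slide as a block it was 0.44 ± 0.09 (adjusted p = 0.0179). The block cannot move the fold change, since each slide held as many ozone as air arrays. With each array left out in turn, the call was kept 15 times in 16 and was lost without air replicate 4 of 6 h (0.41, adjusted p = 0.0766). The refits without an array of 24 h cannot move the fold change at 6 h and so test the call less. The call was also lost in a fit of the 8 arrays of 6 h alone (adjusted p = 0.0926).

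Cells known to carry Cd14 were followed through their marker genes, as the sum of the markers' linear signals in units of the 75th percentile. In bulk lung, fewer cells of a type and less RNA per cell cannot be told apart. At 6 h the 18 macrophage and monocyte markers summed to 347 to 371 in the ozone lungs, against 354 to 417 in the air lungs, and the 12 neutrophil markers tested to 131 to 164 in ozone, against 112 to 177 in air. These sums are mostly Lyz2 (78.1% to 84.3%) and S100a9 (74.5% to 83.8%). The mean log2 level of the neutrophil markers, which gives each marker the same weight, lay apart at 6 h, at -0.211 to -0.0878 in ozone, against -0.552 to -0.238 in air, with 10 of the 12 above 0 in log2 fold change. That of the macrophage and monocyte markers overlapped, at 0.528 to 0.600 in ozone, against 0.495 to 0.724 in air, with 6 of 18 above 0. At 24 h the macrophage and monocyte markers summed to 257 to 308 in the ozone lungs, against 236 to 265 in the air lungs, and the neutrophil markers to 63.1 to 87.1 in ozone, against 73.8 to 99.8 in air. By mean log2 level the macrophage and monocyte markers lay apart at 24 h, at 0.218 to 0.448 in ozone, against 0.0221 to 0.0880 in air, with 16 of 18 above 0, while the neutrophil markers overlapped, at -0.875 to -0.473 in ozone, against -0.602 to -0.140 in air, with 3 of 12 above 0. Whether the number of such cells had a part in the Cd14 levels was not tested.

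Lbp, the carrier that brings lipopolysaccharide to Cd14, also rose at 6 h but not at 24 h. Its levels at 6 h were 0.32, 0.35, 0.50 and 0.40 in the ozone lungs, against 0.09, 0.21, -0.20 and -0.30 in the air lungs. The 4 ozone lungs lay close together and above all air lungs, whose values were spread more widely. Ozone values wholly above the air values at 6 h were found for 4.62% of all genes. The mean was 0.39 ± 0.08 with ozone and -0.05 ± 0.24 with air (SD, n = 4 each), a rise of 0.44 ± 0.11 (SE, adjusted p = 0.0356), or 1.36-fold with a 95% interval of 1.15-fold to 1.6-fold.

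The size of the rise of Lbp at 6 h also differed between the slides. Among replicates 1 and 2 it was 0.18 ± 0.13 (adjusted p = 0.602), and among replicates 3 and 4, whose air lungs were the lowest, 0.70 ± 0.13 (adjusted p = 0.0196). With slide as a block it was 0.44 ± 0.11 (adjusted p = 0.0362). That fold change could not move, since each slide held as many ozone as air arrays. With each array left out in turn the call was kept 10 times in 16. It was lost without any 1 of the 4 ozone arrays of 6 h, and without air replicate 3 or 4 of 6 h. The values were then 0.36 to 0.47 (adjusted p 0.0583 to 0.146). The refits that kept it were those without air replicate 1 or 2 of 6 h and those without an array of 24 h. The latter cannot move the fold change at 6 h. The call was also lost with the 6 h arrays alone (adjusted p = 0.116) or the Xist level as a covariate (adjusted p = 0.0617).

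At 24 h the levels of Lbp were 0.24, 0.61, 0.65 and 0.57 in the ozone lungs, against 0.67, 0.64, 0.59 and 0.87 in the air lungs. All 4 ozone lungs lay below the mean of the air lungs, 0.69 ± 0.12, though the ranges overlapped. The log2 fold change was -0.18 ± 0.11 (SE, adjusted p = 0.575). The effect at 24 h minus that at 6 h was -0.62 ± 0.16 (95% interval -0.954 to -0.281), which missed the threshold over all genes (adjusted p = 0.127) and passed it only without air replicate 2 of 6 h among the fits that left out 1 array (-0.70, adjusted p = 0.041).

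Lbp is made in large amounts by the liver, so liver markers were followed beside it. Of 5 such markers 3 were tested, and they summed to 0.239 to 1.96 in the ozone lungs and 0.174 to 3.98 in the air lungs at 6 h, and to 0.126 to 0.411 in ozone and 0.180 to 0.869 in air at 24 h. Albumin stood at 0.36 ± 0.63 (log2 fold change, SE) at 6 h. All 3 stood above 0 at 6 h (median 0.361) and below 0 at 24 h (median -0.282), the same signs as Lbp, and limma called 0 of them at either time, with 0 at an unadjusted p under 0.05. Their summed levels overlapped between the groups at both times. Fgb, a fibrinogen chain also made by the liver, stood at 1.86 ± 0.80 at 6 h (adjusted p = 0.192). The part of liver transcripts in the Lbp levels was not tested.

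**Figure D2:**
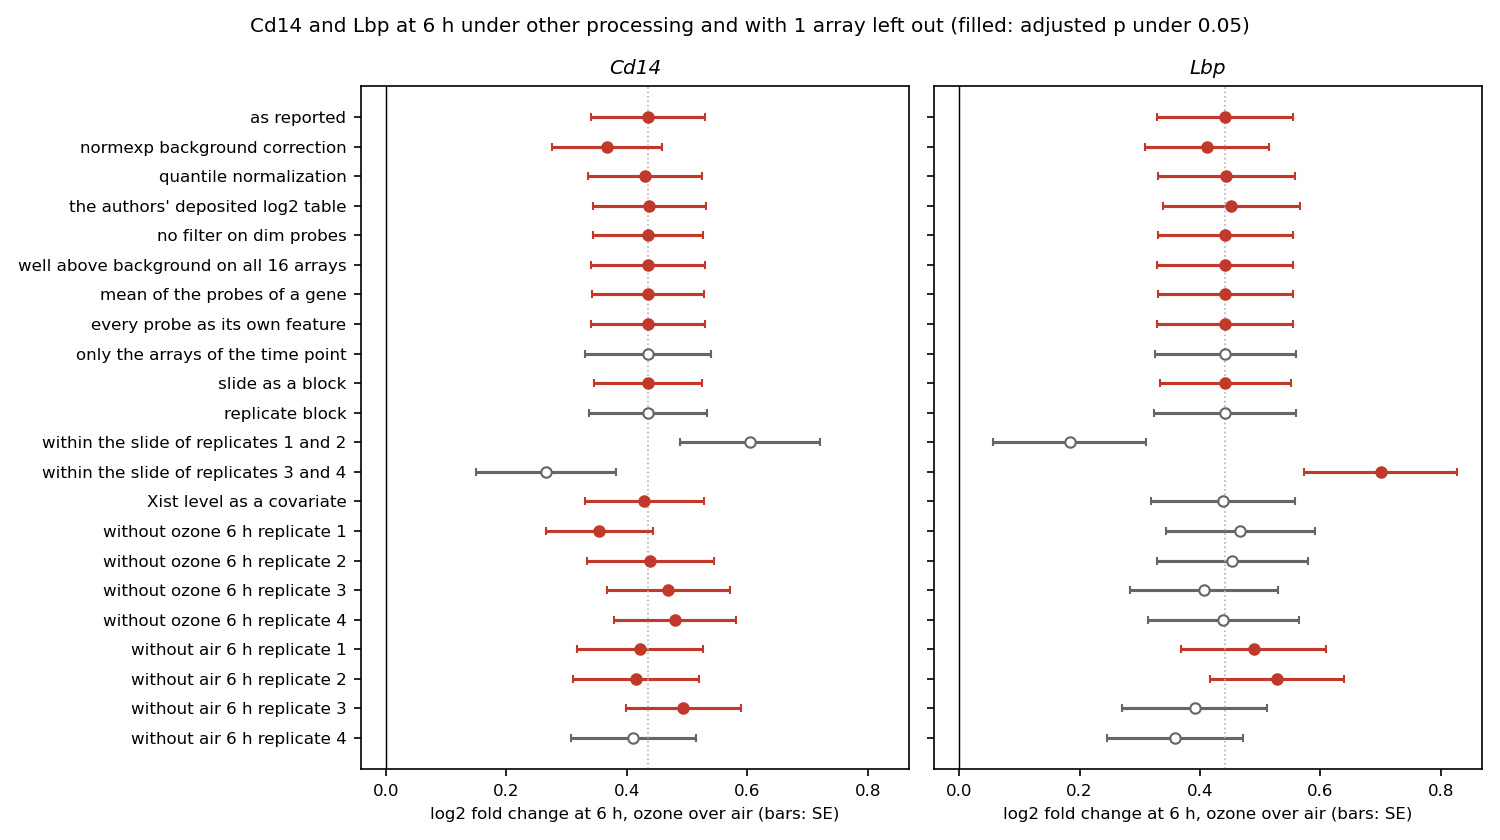
Log2 fold change of Cd14 and Lbp at 6 h (x axis, ozone over air, bars are SE) as reported, under 13 other ways of processing and with each 6 h array left out (rows), filled red where the adjusted p was under 0.05. Every value lies above 0, and the values within the slides are the farthest from the reported ones, 0.60 and 0.27 for Cd14 and 0.18 and 0.70 for Lbp. The other filters, the ways of joining probes, the blocks and the 6 h arrays alone return the reported fold change by construction.

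Ly96, the partner that seats lipopolysaccharide in Tlr4, did not pass the test. It stood at -0.16 ± 0.14 at 6 h (fold 95% interval 0.727 to 1.1, adjusted p = 0.544) and 0.14 ± 0.14 at 24 h (0.896 to 1.36, adjusted p = 0.789). Its levels ranged from -1.42 to -0.93 in the ozone lungs and from -1.30 to -0.78 in the air lungs at 6 h, and the groups overlapped at both times.

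The surface receptors Tlr2 and Tlr4 did not pass the test at either time. Tlr2, which pairs with Tlr1 or Tlr6, had levels at 6 h of 0.61, 0.72, 0.36 and 0.27 in the ozone lungs, against 0.82, 0.36, -0.01 and 0.59 in the air lungs, and the log2 fold change was 0.05 ± 0.15 (adjusted p = 0.873). At 24 h the levels were 0.09, -0.39, -0.21 and -0.08 with ozone, against -0.35, -0.60, -0.35 and -0.38 with air. All 4 ozone lungs then lay above the air mean of -0.42 ± 0.12, at 0.28 ± 0.15 (95% interval -0.042 to 0.596, adjusted p = 0.472).

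Tlr4, the receptor of lipopolysaccharide, stood at -0.13 ± 0.10 at 6 h (adjusted p = 0.441), where all 4 ozone lungs lay below the air mean of 0.68 ± 0.19. It stood at 0.13 ± 0.10 at 24 h (adjusted p = 0.649), where all 4 lay above the air mean of -0.51 ± 0.06. The effect at 24 h minus that at 6 h was 0.27 ± 0.14 (adjusted p = 0.43). The 95% intervals of the ozone effect on Tlr4 ran from 0.792-fold to 1.05-fold at 6 h and from 0.953-fold to 1.26-fold at 24 h. Tlr4 was read at chr4:66503724-66503782 (plus strand), and Tlr2 at chr3:83640344-83640403 (minus strand, mm9).

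Among these receptors the spread over the spots of 1 array was smaller than that between mice for Tlr2. The spot spread holds no error of labelling or of whole arrays. With 1 array per mouse, that error is part of the spread between mice and was not measured. Tlr2, Tlr4 and Myd88 were printed as 10 spots each, and the SD over the spots of 1 array had a median of 0.0566, 0.0614 and 0.0566 on the log2 scale. The SD between the 4 mice of a group ran from 0.119 to 0.356 for Tlr2, from 0.0563 to 0.187 for Tlr4 and from 0.0436 to 0.141 for Myd88. A second probe named for Tlr4, 86774 bases downstream of the first, was well above background on 0 of the 16 arrays and was not used.

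The endosomal receptors Tlr3 and Tlr7 did not pass the test either. Tlr3, which signals through the adaptor Ticam1, was read by a pair of probes that lie 280 bases apart on chromosome 8. The brighter of them (chr8:46482009-46482068, minus strand) gave 0.04 ± 0.15 at 6 h and -0.14 ± 0.15 at 24 h (adjusted p = 0.895 and 0.815), and the other gave 0.07 ± 0.15 at 6 h and -0.21 ± 0.15 at 24 h when each probe was fitted on its own. The probes had the same sign at each time. At 6 h the value of the brighter probe rested on ozone replicate 3, at -3.13 beside -3.78, -3.65 and -3.57 in the other ozone lungs, and it was -0.09 without that array and -0.20 with quantile normalization. With normexp, another background correction, the value was 0.25 at 6 h, -0.48 at 24 h (adjusted p = 0.266) and -0.73 for the difference (adjusted p = 0.17), against -0.18 for the difference as reported.

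Tlr7, a sensor of viral RNA on the X chromosome (chrX:163743189-163743248, minus strand), had levels at 6 h of -2.06, -1.70, -2.29 and -1.81 in the ozone lungs, against -1.80, -1.92, -1.58 and -1.69 in the air lungs. At 24 h they were -3.10, -3.20, -2.98 and -2.79 with ozone, against -3.24, -3.11, -3.42 and -3.39 with air. The groups overlapped at both times, with 1 of 4 ozone lungs above the air mean at 6 h and 4 of 4 at 24 h. The log2 fold change was -0.22 ± 0.14 at 6 h (adjusted p = 0.391) and 0.27 ± 0.14 at 24 h (adjusted p = 0.438), and the difference of these effects was 0.49 ± 0.20 (adjusted p = 0.312). With the Xist level as a covariate the effects were -0.21 at 6 h and 0.29 at 24 h. With normexp background correction the value at 24 h turned to -0.17 and the difference to -0.07.

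Myd88, the adaptor that joins the receptors to their kinases, had levels at 6 h of 0.70, 0.87, 0.88 and 0.83 in the ozone lungs, against 0.58, 0.83, 0.51 and 0.65 in the air lungs. All 4 ozone lungs lay above the air mean, while air replicate 2 overlapped them. The log2 fold change was 0.18 ± 0.07 (95% interval 0.025 to 0.331), which missed the threshold over all genes (adjusted p = 0.171) and passed it only without air replicate 2 among the fits that left out 1 array (0.24, adjusted p = 0.0382). At 24 h it was 0.07 ± 0.07 (adjusted p = 0.784), again with all 4 ozone lungs above the air mean of 1.00 ± 0.06. Its probe lies at chr9:119245322-119245381 (minus strand, mm9).

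The inhibitors Nfkbia and Tnfaip3, both known targets of NF-kB that feed back on it, did not pass the test, and their values were near 0 at both times. Nfkbia stood at 0.03 ± 0.11 at 6 h (0.869-fold to 1.19-fold, adjusted p = 0.91) and -0.10 ± 0.11 at 24 h (0.795-fold to 1.09-fold, adjusted p = 0.801). Tnfaip3 stood at 0.11 ± 0.08 at 6 h (0.964-fold to 1.21-fold, adjusted p = 0.427), with all 4 ozone lungs above the air mean, and at -0.02 ± 0.08 at 24 h (0.878-fold to 1.11-fold, adjusted p = 0.969). Within groups the Nfkbia levels ran from 4.31 to 4.58 with ozone and from 4.34 to 4.56 with air at 6 h. The Tnfaip3 probe lies at chr10:18720994-18721053 (minus strand, mm9).

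**Figure D3:**
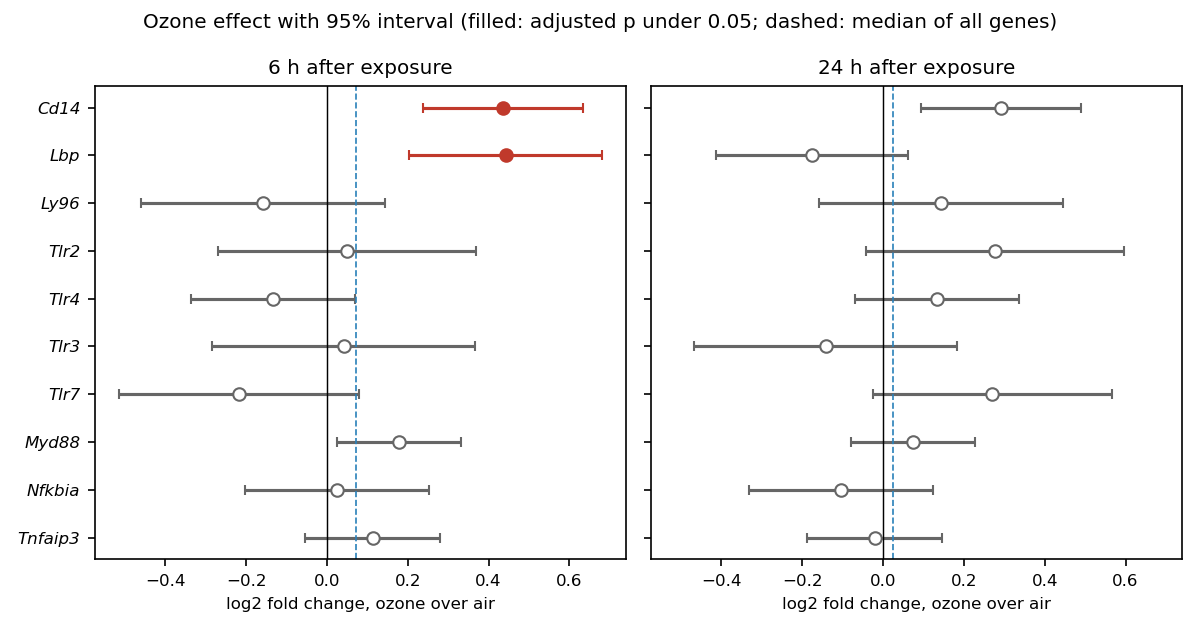
Log2 fold change of ozone over air (x axis) with its 95% interval for the 10 genes at 6 h and 24 h, filled red where the adjusted p over all genes was under 0.05, with the median of all genes as a dashed line. Cd14 and Lbp at 6 h are the filled points, and the intervals of Cd14 at 24 h and Myd88 at 6 h also lie wholly above 0.

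Stretches of promoter are shown where they hold the binding motif of NF-kB, the factor at the end of the pathway. Windows of 250 bases before to 50 after the start of transcription, from RefSeq on build GRCm38.p6, were matched for 5 of the 10 genes, Tlr2, Tlr3, Myd88, Nfkbia and Tnfaip3, the last with 2 starts. The 10-base NF-kB consensus was searched on both strands. It was found for 4 of these 5 genes, all but Myd88, and for 5.14% of all 27025 genes with a window. Capitals mark matches that lie wholly upstream of the start, in stretches of 30 bases, of which the second of Tnfaip3 runs on past the start.
Tlr2, chr3:83841762-83841791 (minus strand): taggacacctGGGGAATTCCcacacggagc
Tlr3, chr8:45410572-45410601 (minus strand): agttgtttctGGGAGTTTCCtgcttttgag
Tnfaip3, chr10:19015516-19015545 (minus strand): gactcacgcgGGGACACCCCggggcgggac
Tnfaip3, chr10:19015403-19015432 (minus strand): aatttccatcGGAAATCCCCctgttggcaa
Nfkbia, chr12:55492657-55492686 (minus strand): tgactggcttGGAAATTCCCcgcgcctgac
The second Tnfaip3 match and the Nfkbia match read as the consensus on the opposite strand. In Tlr2 a further match, which reads the same on both strands, overlaps the one shown by all but 1 base, and another lies across the start. The second Tnfaip3 window held no match. A match is a description of the letters and shows no binding.

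The levels of the 10 genes differed more between the times than between ozone and air for several of them. Each time was a separate run on its own slides, so time after exposure, age at collection and run cannot be told apart. These levels are therefore given without a test. For Tlr7 the mean over the 8 lungs of a time was -3.15 at 24 h and -1.86 at 6 h, and for Tlr4 it was -0.45 at 24 h and 0.62 at 6 h. For Myd88 it was 1.03 at 24 h and 0.73 at 6 h. These 3 genes had no overlap between the lungs of 24 h and those of 6 h.

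Within the order of the 4 groups, most neighbours overlapped. Cd14 was highest with ozone at 6 h, which stood apart from ozone at 24 h, then air at 6 h and air at 24 h, whose ranges overlapped in turn. Lbp ran from air at 24 h through ozone at 24 h and ozone at 6 h, which overlapped, to air at 6 h, which stood apart as the lowest. Tlr2 ran from ozone and air at 6 h to ozone and air at 24 h with overlap between all neighbours, and its mean level was -0.29 at 24 h and 0.47 at 6 h. Tlr4 and Tlr7 shared 1 order, air and then ozone at 6 h, followed by ozone and then air at 24 h, with a gap between the times alone. For Ly96, Tlr3, Nfkbia and Tnfaip3 all neighbouring groups overlapped. The macrophage and monocyte markers, too, summed to less at 24 h, 236 to 308 over both exposures, than at 6 h, 347 to 417. This was not particular to them. Alveolar type II markers summed to 626 to 785 at 24 h, against 791 to 926 at 6 h, and neutrophil markers to 63.1 to 99.8, against 112 to 177. Endothelial markers summed to more at 24 h, 78.4 to 91.6, than at 6 h, 51.8 to 70.9. The part of such changes in the receptor levels was not tested.

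The genes whose levels over the 16 arrays were most like those of Cd14 were Cfap43 (Pearson r = 0.963), Col20a1 (0.922) and Amy1 (0.902). Those most like Lbp were Adamtsl4 (0.939), Cmip (0.933) and Pde2a (0.93). They are the top 3 of 16157 genes with an official symbol, and the arrays share slides and run within a time, so that these correlations describe the data set and carry no p.

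Other genes of the pathway were read from 7 lists that hold 109 genes, of which 99 were tested. At 6 h 9 of the 99 were called, 4 higher and 5 lower (9.09%, beside 4.47% of all genes). At 24 h 2 of the 99 were called, 1 higher and 1 lower (2.02%, beside 2.01% of all genes). In the difference between the times limma called 0 of the 99. The lists were drawn up with earlier results of these data known, so these shares are a description. Of all genes, 21% had an unadjusted p under 0.05 at 6 h and 13.3% at 24 h. Calls of list genes were followed through 16 refits without 1 array and 13 alternatives of processing. For an ozone effect at 1 time, the refits without an array of the other time keep the fold change. They alter only its error and p, and so test a call less.

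Among the other Toll-like receptors, 5 of 9 listed were tested, Tlr1, Tlr5, Tlr6, Tlr9 and the related Cd180, and limma called 0 of the 5 at either time. The smallest p at 6 h was that of Tlr5, a sensor of flagellin, at -0.14 ± 0.11 (adjusted p = 0.479). At an unadjusted p under 0.05 there were 0 at 6 h and 2 at 24 h, Cd180, a relative of Tlr4 on B cells, at 0.64 ± 0.22 (adjusted p = 0.164) and Tlr1, a partner of Tlr2, at 0.34 ± 0.13 (adjusted p = 0.221). Of 6 receptor partners and chaperones tested, 1 fell at 6 h. It was Hsp90b1, the endoplasmic reticulum chaperone gp96 that folds most Toll-like receptors, at -0.37 ± 0.09 (adjusted p = 0.0344, called in 12 of 16 refits and 5 of 13 alternatives), with levels of 6.00, 5.76, 5.69 and 5.88 in ozone lungs, against 6.10, 6.06, 6.32 and 6.32 in air lungs. At 24 h limma called 0 of the 6, and the smallest p was that of Unc93b1, which escorts Tlr3, Tlr7 and Tlr9 to endosomes, at 0.46 ± 0.12 (adjusted p = 0.0672).

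Of the 22 adaptors, kinases and interferon regulatory factors tested, limma called 0 at either time, with 2 at an unadjusted p under 0.05 at each time. The smallest p belonged to Chuk, the IKK-alpha kinase, at 6 h (-0.22 ± 0.09, adjusted p = 0.169) and to Ikbkg, the NEMO subunit of the same kinase complex, at 24 h (0.34 ± 0.11, adjusted p = 0.135). The other Chuk probe had the opposite sign at 6 h (0.08). Of the other Ikbkg probes, 1 had the opposite sign at 24 h (-0.48), while the rest stood at 0.05 and 0.21. The list median was 0.024 at 6 h and -0.020 at 24 h. Of 9 NF-kB subunits and other IkB proteins tested, 1 rose at 6 h, Relb, the subunit of the noncanonical branch, by 0.26 ± 0.07 (adjusted p = 0.0387, called in 6 of 16 refits and 7 of 13 alternatives). Its levels were 0.96, 0.87, 0.81 and 0.91 in the ozone lungs, against 0.62, 0.75, 0.61 and 0.51 in the air lungs. These did not overlap, and 4.62% of all genes had ozone values wholly above the air values at 6 h. The list median was 0.236 at 6 h, beside 0.0719 over all genes, and 0.124 at 24 h, beside 0.0239. Over genes well above background on all 16 arrays the medians were 0.0374 and 0.0331. At 24 h limma called 0 of the list, and 2 had an unadjusted p under 0.05. The smallest p at 24 h was that of Nfkbie, which encodes IkB-epsilon, at 0.27 ± 0.10 (adjusted p = 0.219).

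Of 24 NF-kB target genes tested, 1 rose at both times. It was Traf1, a signalling protein of TNF receptors, by 0.34 ± 0.09 at 6 h (adjusted p = 0.038) and 0.53 ± 0.09 at 24 h (adjusted p = 0.00295). At 24 h its levels were 1.61, 1.30, 1.42 and 1.43 in the ozone lungs, against 0.92, 0.92, 0.90 and 0.92 in the air lungs. The call held in all 16 refits and 11 of 13 alternatives at 24 h, and in 6 of 16 and 7 of 13 at 6 h. The list median was 0.234 at 6 h and 0.181 at 24 h, and 8 of the 24 had an unadjusted p under 0.05 at each time. The inflammatory cytokines Tnf and Il1b, chosen as examples after their values were seen, did not pass the test at 6 h, at 0.29 ± 0.18 and 0.12 ± 0.13 (adjusted p = 0.382 and 0.639).

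Of 19 other brakes of the pathway, 2 rose and 1 fell at 6 h. Irak3, an inactive kinase that blocks the Myd88 complex, rose by 0.84 ± 0.23 (adjusted p = 0.0467), with levels of -2.98, -2.45, -3.52 and -3.89 in the ozone lungs, against -3.90, -3.94, -4.11 and -4.24 in the air lungs. The pair of ozone replicates 1 and 2 stood well above the rest, and the call held in 2 of 16 refits and 4 of 13 alternatives, whose values ran from 0.47 to 1.2. Rnf216, a ubiquitin ligase also known as TRIAD3A that removes Toll-like receptors, rose by 0.26 ± 0.07 (adjusted p = 0.0415, called in 4 of 16 refits and 5 of 13 alternatives). Dusp1, a phosphatase that ends MAP kinase signalling, fell by 0.80 ± 0.20 (adjusted p = 0.0335, called in 11 of 16 and 8 of 13). At 24 h limma called 0 of the 19, with 5 at an unadjusted p under 0.05, and the smallest p was that of Socs1, a suppressor of cytokine signalling, at 0.48 ± 0.13 (adjusted p = 0.0652).

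Of 14 endogenous ligands tested, 3 fell at 6 h and 1 at 24 h, and none rose. Vcan, the matrix proteoglycan versican known as a ligand of Tlr2, fell by 0.68 ± 0.10 at 6 h (adjusted p = 0.00234) and by 0.43 ± 0.10 at 24 h (adjusted p = 0.031). These calls held in 16 of 16 refits and 11 of 13 alternatives at 6 h, and in 9 of 16 and 9 of 13 at 24 h. At 6 h its levels were -1.27, -1.39, -1.33 and -1.53 in the ozone lungs, against -0.54, -0.70, -0.68 and -0.87 in the air lungs. Its other probes did not all follow. Of 3, 1 had the opposite sign at 6 h (0.05) and a different 1 at 24 h (0.42), and with the mean over the probes Vcan stood at -0.34 at 6 h and -0.17 at 24 h, neither called. Has2, which makes hyaluronan, fell by 0.60 ± 0.14 (adjusted p = 0.0258) and Hspd1, the mitochondrial chaperone HSP60, by 0.33 ± 0.08 (adjusted p = 0.0258), called in 12 and 11 of 16 refits and each in 7 of 13 alternatives. S100a8 and S100a9, neutrophil proteins known to act on Tlr4, stood at -0.09 ± 0.16 and 0.02 ± 0.17 at 6 h (adjusted p = 0.77 and 0.954).

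**Figure D4:**
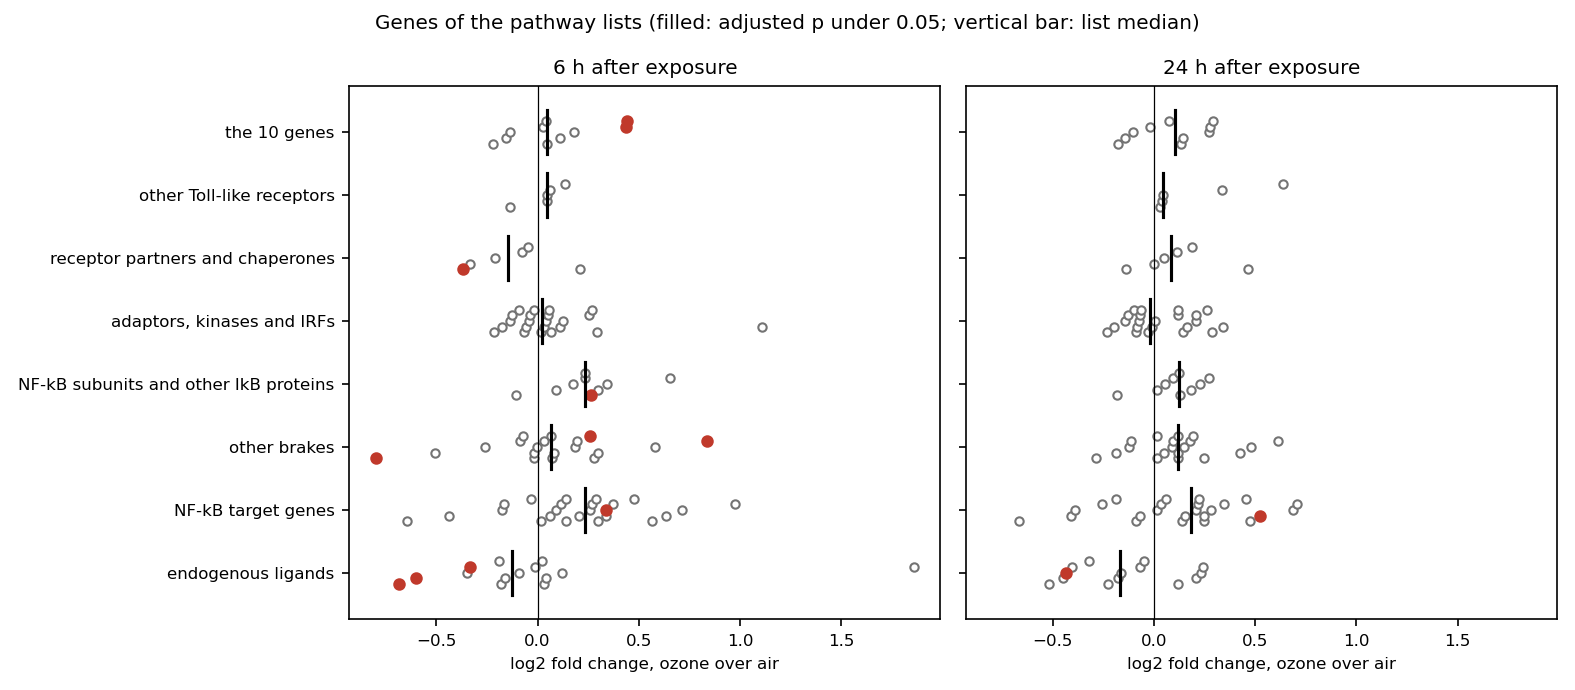
Log2 fold change of ozone over air (x axis) of every tested gene of the 10 genes and the 7 pathway lists (rows) at 6 h and 24 h, filled red where the adjusted p over all genes was under 0.05, with a vertical bar at each list's median. Filled points are 2 of the 10 genes and 9 list genes at 6 h, and Traf1 and Vcan at 24 h, and most points of both times lie within 0.5 of 0.

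A few cell type markers passed the test, most of them at 24 h. Of all genes, 4.47% were called at 6 h and 2.01% at 24 h. Of 18 macrophage and monocyte markers 2 rose at 24 h, Csf1r by 0.31 ± 0.07 and Mpeg1 by 0.53 ± 0.13 (adjusted p = 0.0274 and 0.0356), and 1 fell at 6 h, Mrc1 by 0.40 ± 0.11 (adjusted p = 0.0417). Csf1r and Mpeg1 were each called in 9 of 16 refits, and in 8 and 7 of 13 alternatives, and Mrc1 in 4 and 6. Of 2 other Csf1r probes, 1 had the opposite sign. The list median was -0.031 at 6 h and 0.308 at 24 h, where Tlr2, Tlr4 and Tlr7 stood at 0.28, 0.13 and 0.27. With normexp the median of all genes moved to -0.134 at 24 h, and Tlr7 and Ly96 turned below 0. Of 6 B cell markers, 2 rose at 24 h, Vpreb3 by 0.94 ± 0.09 and Cd79b by 0.70 ± 0.13 (adjusted p = 0.000159 and 0.0052), and the 6 summed to 5.73 to 7.83 in the ozone lungs, against 3.77 to 4.59 in the air lungs. The difference between the times was also called for Vpreb3 (0.84 ± 0.13, adjusted p = 0.0293). Among markers of other cells at 24 h, Lck of T cells rose by 0.51 ± 0.13 (adjusted p = 0.0456, called in 4 of 16 refits and 3 of 13 alternatives). Of the 7 T and NK cell markers 6 stood above 0, while Cd3e stood at -0.33 ± 0.26. Tppp3 of ciliated cells rose by 0.40 ± 0.09 (adjusted p = 0.0305) and Klf1 of erythroid cells fell by 0.99 ± 0.23 (adjusted p = 0.0304), each called in 10 of 13 alternatives. Of the 5 erythroid markers 4 stood below 0 at 24 h, while Alas2 stood at 0.42 ± 0.31. Alas2 made up 92.8% to 97.7% of the erythroid sum at 24 h. That sum ran from 7.70 to 17.6 in the ozone lungs, against 5.78 to 15.6 in the air lungs. Of 12 neutrophil markers tested limma called 0 at either time, with list medians of 0.229 at 6 h and -0.236 at 24 h. At an unadjusted p under 0.05 there were 2 at 6 h and 3 at 24 h, beside 21% and 13.3% of all genes. Of 3 plasmacytoid dendritic cell markers tested limma called 0 at either time, with 1 at an unadjusted p under 0.05 at 6 h and 0 at 24 h. The part of these cells in the levels of the 10 genes was not tested.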

How the data were processed

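Labelled RNA of 16 whole lungs, 1 array each, was measured in 1 colour (Cy3) on Agilent 44K arrays. Each deposited scanner file holds intensity values per spot (linear, unscaled between arrays) from Agilent Feature Extraction 10.7.1.1, which took off background and spatial trends, per the file headers. Other deposited values used are 0 or 1 flags of each spot (well above background, saturated, outlier). A series table of log2 values from the authors, normalized apart for each time (medians 6.41 at 6 h and 6.73 at 24 h) was an alternative. How its background was treated is not stated in the sources used. Probe positions are on build mm9 per the file headers.

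Spots that are controls or outliers were left out, spots of 1 probe were averaged as log2 of the processed signal, and each array's 75th percentile was subtracted. Saturated spots numbered 0. A minimum of 4 of 16 arrays well above background kept 32343 of 41174 probes, with the highest-mean probe per gene, which left 21631 genes, and 117 probes were lost to outlier spots. Of the probes, 25097 were named by accession, 6333 by symbol and 1640 by synonym in a RefSeq gene table, and 8104 kept the name in the files. The test was limma's (version 3.58.1, R 4.3.3), with lmFit, a trended eBayes and 4 group means (16 arrays, two-sided, Benjamini-Hochberg over all genes, threshold 0.05). All adjusted p-values are limma's. Errors of fold changes are SE with 4 arrays per group, and the number of arrays limits the precision (median SE 0.133 on the log2 scale). The p-values measure the spread between these mice. Tested on simulated data for 21631 genes, the fit recovered 50% of 1.5-fold and 67% of 2-fold changes at 6 h, and 48% and 63% at 24 h, with 4.1% and 9.02% of its calls false. In the simulation only a small set of genes was changed. Its noise was independent between arrays, with no differences between slides, litters or sexes, so these shares may not hold for the real arrays.

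The 10 genes, the pathway lists and the marker lists were chosen with earlier results of these data known. The text names all 10 genes, per pathway list at 6 h and at 24 h up to 3 called genes with the smallest p or, where none was called, the 1 with the smallest p, the 3 genes most like each called member, and called cell type markers. Cd180 and Tlr1 together, Tnf, Il1b, S100a8, S100a9, albumin and Fgb were added after their values were seen.

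Alternatives were normexp, quantile normalization, the deposited table, other filters, other ways of joining probes, the arrays of 1 time alone, slide or replicate blocks, fits within slides, the Xist level as a covariate and leaving out each array.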

Additional observations from a re-analysis of the deposited data

Results flagged for a closer look

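Of 44 groups of 4 lungs examined over the 11 probes used, 2 held a lung whose gap to its nearest neighbour exceeded Dixon's 95% critical value, and chance gives about 1 in 20. Cd14 in air replicate 3 of 6 h stood at 0.207, above the other air lungs of that time at -0.01, -0.03 and -0.04, and without it the rise at 6 h was 0.49 (adjusted p = 0.0125). Tlr2 in air replicate 2 of 24 h stood at -0.601, below the other air lungs of that time at -0.35, -0.35 and -0.38.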

How the results depend on the processing

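Cd14 and Lbp at 6 h lay above 0 under all 13 alternatives run and in all 16 fits without 1 array, and each was called under 9 of the 13 alternatives. Many of these signs were fixed by construction. Both genes have 1 probe, so the other filters and ways of joining probes could not move their fold changes. Nor could the 6 h arrays alone, the blocks or leaving out an array of 24 h. The count of the 10 genes called at 6 h, 2 as reported, was 0 with only the arrays of 6 h, 0 with the replicate block, 0 within the slide of replicates 1 and 2, 1 (Lbp) within that of replicates 3 and 4 and 1 (Cd14) with the Xist covariate. Leaving out 1 array gave 0 (without air replicate 4) to 3 (without air replicate 2) of the 10 at 6 h and 0 to 1 for the difference between the times. At 24 h the count was 0 under every setting run. Of all genes, 967 were called at 6 h as reported, 100 with only the arrays of that time, 247 with the replicate block, 53 and 760 within the slides and 558 with the Xist covariate. At 24 h the 435 called became 261 with the replicate block, 46 and 255 within the slides and 245 with the Xist covariate. For the difference between the times the 14 called became 535 with normexp, 38 with quantile normalization, 22 with every probe on its own, 6 with slide as a block, 1 with the replicate block and 0 and 0 within the slides. Leaving out 1 array gave 196 to 1688 genes at 6 h, 263 to 530 at 24 h and 0 to 261 for the difference. Normexp changed the split of calls at 6 h to 151 higher and 803 lower (295 and 672 as reported) and at 24 h to 323 and 322 (149 and 286), with the median of all genes at -0.134 at 24 h (0.0239 as reported). Same-numbered ozone and air lungs deviated from their group means with correlations of 0.0506 to 0.14 at 6 h and -0.00704 to 0.195 at 24 h, not every lung correlated best with its own number, and the numbers were not taken to pair mice. The replicate block keeps every fold change by construction, since each block holds 1 ozone and 1 air lung, so it could change no direction. It gave Cd14 and Lbp at 6 h adjusted p of 0.057 and 0.086. Fewer samples, or more terms in the fit, stand behind the blocks, the slides and the single times by construction, and the cause of the other shifts was not tested.

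No value of the 10 genes that changed sign was called in either form. At 6 h Tlr3 was -0.199 with quantile normalization, -0.197 with the authors' deposited table and -0.079 within the slide of replicates 1 and 2, Ly96 was 0.086 within that slide and Nfkbia -0.018 with normexp. At 24 h Tlr7 was -0.170 and Ly96 -0.091 with normexp, Ly96 was -0.159 within the slide of replicates 3 and 4, and Nfkbia was 0.005 and Tnfaip3 0.069 within that of replicates 1 and 2. For the difference Tlr3 was 0.072 with quantile normalization and 0.069 with the deposited table, Tlr7 was -0.066, Ly96 -0.018 and Nfkbia 0.004 with normexp, Cd14 was 0.021 within the slide of replicates 3 and 4, and Myd88 was 0.015 and Tnfaip3 0.004 within that of replicates 1 and 2. Leaving out 1 array gave -0.103 to 0.175 for Tlr2, -0.093 to 0.123 for Tlr3 and -0.013 to 0.080 for Nfkbia at 6 h, and -0.180 to 0.007 for Nfkbia and -0.079 to 0.037 for Tnfaip3 at 24 h. The probes used for the 10 genes were well above background on all 16 arrays, yet the values of Tlr3, Tlr7 and Ly96 depended on the background correction. With normexp, Tlr3 was 0.252 at 6 h, -0.481 at 24 h and -0.733 for the difference, against 0.042, -0.142 and -0.184 as reported.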
